A study of Musca domestica with 24 samples.

Results

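Of the 2111 house fly (Musca domestica) genes on chromosome element A that carry a LOC identifier, 364 were expressed above a threshold in only one of the tissues sequenced, testis or head. A gene was kept when its mean reached 1 CPM (count divided by the total count of the library and scaled to counts per 1 M) over the 12 libraries of one tissue and stayed under 1 CPM over the 12 libraries of the other. By this measure 232 genes were testis-limited and 132 were head-limited, while 1495 reached the threshold in both tissues and 252 in neither. The genes were thus chosen by their measured mean CPM in the 2 tissues, and the tissue levels below describe that choice and test nothing. The choice used no strain or temperature label, but a gene near the threshold can pass through one group in which it is high, so shares of genes that differ between groups are also given for genes at 1 CPM or more in each of the 4 groups of their tissue.

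Muller elements are the chromosome arms whose gene content is largely shared among flies. Element A is the X chromosome of Drosophila melanogaster and an autosome, chromosome III, in the house fly. Genes transcribed in the testis and little elsewhere are common in fly genomes, many of them are switched on in spermatocytes for sperm formation, and they tend to evolve quickly in sequence and in expression. Head-limited genes in flies typically serve the eye, the antenna, the brain or the head fat tissue. House fly males carry a male determiner on one of several young Y chromosomes, or proto-Ys, and in the literature CSrab males carry one on chromosome III and IsoCS males one on the Y chromosome. The labels themselves do not say which proto-Y a strain carries.

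The groups were CSrab at 29 °C, CSrab at 18 °C, IsoCS at 29 °C and IsoCS at 18 °C, the temperatures being those of development, with 3 libraries each from testis and 3 from head. The series describes both strains as isogenic apart from the proto-Y and gives the replicates as biological. It does not say how many flies went into a library or whether replicates came from separate rearings, so p-values measure the spread between these libraries. Libraries held 14.9 to 40 M counts in testis (median 25.6 M) and 15.7 to 35.7 M in head (median 23.8 M). The head libraries carried the transcript of pdf, a neuropeptide of clock neurons, at 4.89 to 23.3 CPM, against 0 to 0.15 CPM in the testis libraries, while the tables held no testis marker by symbol; pdf was picked after its values were seen. Some libraries stood apart. IsoCS testis replicate 3 at 29 °C held the highest value of the 12 testis libraries for 53 of the 232 testis-limited genes, CSrab testis replicate 3 at 29 °C held it for 1, and the 29 °C and temperature counts in testis are also given without one or the other.

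Testis-limited genes covered a wide range of levels. Their mean in testis ran from 1.01 to 1593 CPM with a median of 11 CPM, and 112 lay at 1 to 10, 71 at 10 to 100 and 49 at 100 CPM or more. In head, 10 of them had 0 counts in all 12 libraries, 119 had a mean under 0.1 CPM, 69 lay at 0.1 to 0.5 and 44 at 0.5 to 1 CPM, where those with 0 counts are among the 119. Together they took 1.71 to 2.73% of the counts of a testis library and 0.00402 to 0.00739% of a head library. In bulk tissue, fewer cells of a type and less RNA per cell cannot be told apart.

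The threshold cut through a continuum at its low end. LOC109612255 and LOC101894963, with testis means of 1.01 and 1.02 CPM, lay just inside it, and LOC101894744 and LOC101900999, with 0.971 and 0.968 CPM, just outside. In head, LOC101900752 at 0.986 and LOC101899824 at 0.96 CPM lay just inside, and LOC101889747 at 1.01 and LOC101894335 at 1.03 CPM just outside. Of the 232, 185 reached 1 CPM in each of the 4 testis groups and 47 were under it in some group. Among the 47, 5 reached 1 CPM in both CSrab groups and neither IsoCS group, 7 in both IsoCS groups and neither CSrab group, 4 in both strains only at 29 °C, and 0 only at 18 °C.

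**Figure D1:**
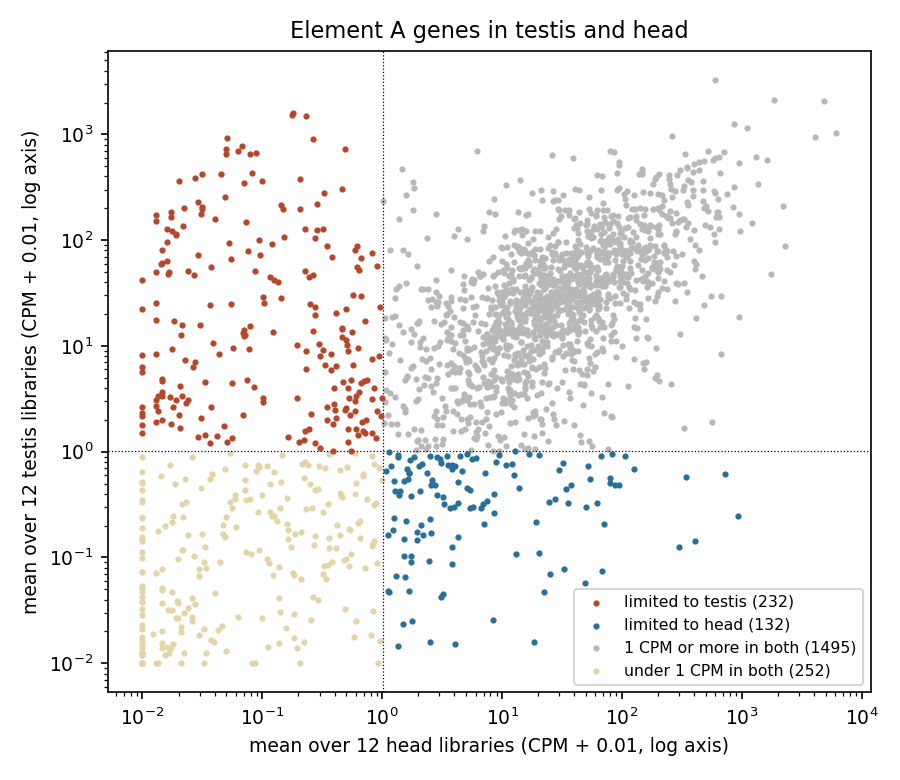
Mean over the 12 testis libraries (vertical) against the mean over the 12 head libraries (horizontal) for the 2111 element A genes, both as CPM plus 0.01 on log axes, with dotted lines at the 1 CPM threshold. The 232 testis-limited genes fill the upper left from 1.01 to 1593 CPM in testis, and the 132 head-limited genes the lower right, 91 of them at 1 to 10 CPM in head.

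Head-limited genes sat nearer the threshold. Their mean in head ran from 1.06 to 929.6 CPM with a median of 3.91 CPM, with 91 at 1 to 10, 34 at 10 to 100 and 7 at 100 CPM or more. In testis 25 of them had a mean under 0.1 CPM, 54 lay at 0.1 to 0.5 and 53 at 0.5 to 1 CPM, and 0 had no count at all in the 12 testis libraries. With a wider gap, at least 2 CPM in head and under 0.5 CPM in testis, 56 of them were kept, and 42 of the 132 reached 1 CPM in at least one testis group. Just inside lay LOC101887889 at 1.06 and LOC105261528 at 1.1 CPM in head, and just outside LOC101890458 at 0.984 and LOC101898584 at 0.948 CPM. For testis the nearest were LOC101892282 at 0.998 and LOC101891399 at 0.99 CPM inside, and LOC101889643 and LOC101888532, both at 1.01 CPM, outside.

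By share of genes, testis-limited genes made up 11% of element A, against 9.78% of element B, 9.36% of C, 9.63% of D, 10.2% of E and 15% of the 40 genes on F. Head-limited genes made up 6.25% of element A, against 6.87, 5.13, 7.52, 6.04 and 7.5% of elements B to F in that order. These shares were not tested against each other.

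Gene annotation was not used in the choice. A RefSeq gene table of another assembly (Musca_domestica.polishedcontigs.V.1.1) held 196 of the testis-limited genes, 194 of them protein coding and 2 long noncoding, and had no entry for 36 (15.5%). It held 111 head-limited genes, 109 protein coding and 2 long noncoding, with 15.9% unmatched, against 5.08% unmatched among element A genes expressed in both tissues and 24.6% among those expressed in neither. The median genomic span was 2247 bp for testis-limited genes (quartiles 1123 and 6290 bp) and 5991 bp for head-limited genes (quartiles 1962 and 24703 bp), against 5077 bp for genes expressed in both tissues. The spans were given no test, and the table names no products, so no role can be given to a LOC identifier here.

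Element A genes lay on 315 scaffolds of the authors' build, of which 121 held a testis-limited gene, 84 a head-limited gene and 39 both. Scaffold sizes differed, and no grouping was tested: 14 scaffolds with 4 or more testis-limited genes held 76 of them, while 66 were the only one on their scaffold. One scaffold of 8 element A genes held 5 of them.

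With all libraries kept, strain was the condition that most often separated testis-limited genes in testis. At 29 °C, 75 of the 232 (32.3%) differed between CSrab and IsoCS at an adjusted p under 0.05 (edgeR's quasi-likelihood F test, p-values adjusted by Benjamini-Hochberg over every gene tested), and such genes are termed called below. Over all 13271 genes tested in testis, 10.9% were called. Of the 75, 28 were higher and 47 lower in CSrab, where 5.3% and 5.58% of all genes were. At 18 °C the count was 66 (28.4%), of which 36 had more and 30 had less in CSrab, against a background of 12.7% in either direction, 7.56% higher and 5.15% lower.

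Among the 185 testis-limited genes at 1 CPM or more in each testis group, a subset chosen after seeing the data, 52 (28.1%) were called at 29 °C, 19 with more and 33 with less in CSrab, against 9.26% of the 10836 genes tested that met the same rule. At 18 °C it was 51 (27.6%), 27 with more and 24 with less, against 11.9%.

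The shares were above the background in each range of expression, with no test of the difference. At 29 °C, 30.4% of the testis-limited genes at 1 to 10 CPM, 32.4% of those at 10 to 100 and 36.7% of those at 100 or more were called, against 13.1, 10.1 and 7.49% of all genes in the same ranges. At 18 °C the shares were 26.8, 32.4 and 26.5%, against 14.8, 12.4 and 10.5%. Testis-limited genes on elements B to F were called in 16% (29 °C) and 16.9% (18 °C) of cases, and element A genes expressed in both tissues in 13.3% and 13.5%. These differences between classes were not tested. The median size of a called change was 1.59 on the log2 scale at 29 °C and 1.70 at 18 °C, against 1.36 and 1.26 over all called genes, with the median signed change of all 232 at -0.08 and 0.02. Without IsoCS testis replicate 3 at 29 °C, the 29 °C count was 97 testis-limited genes, 46 with more and 51 with less in CSrab, against 22.7% of all genes. Without CSrab testis replicate 3 at 29 °C it was 58, 27 with more and 31 with less (9.03% of all genes), and without both it was 86, 44 with more and 42 with less (24.4%). With all libraries it was 75 (10.9%). Leaving out IsoCS replicate 3, alone or with the CSrab library, thus raised the share of all genes by more, in proportion, than the testis-limited count. On column totals without scaling factors 56 were called at 29 °C (20 higher, 36 lower; 6.99% of all genes) and 52 at 18 °C (25 higher, 27 lower; 8.09%).

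**Figure D2:**
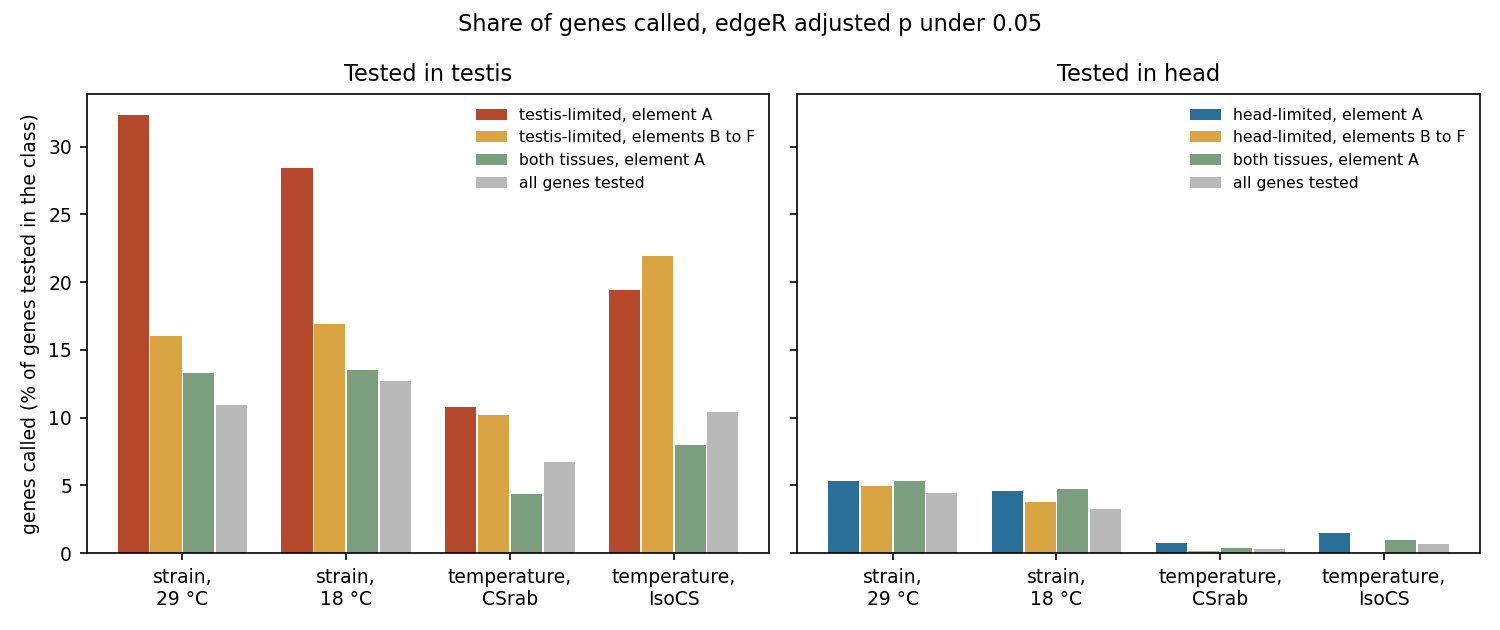
Share of genes called (vertical, percent of the genes tested in each class) for strain effects and temperature effects in testis (left) and head (right). In testis the element A testis-limited bars stand at 32.3% (strain, 29 °C) and 28.4% (strain, 18 °C) over 10.9% and 12.7% for all genes, and in head the element A head-limited bars stand at 5.3% and 4.55% over 4.41% and 3.27%.

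The strain effects at the 2 temperatures were measured in different libraries of the same strains. Of the 97 testis-limited genes called at either temperature, 44 were called at both, which is 58.7% of those called at 29 °C and 66.7% of those called at 18 °C. The sign was the same for 43 of the 44, with 21 higher and 22 lower in CSrab. The exception, LOC109613297, is described with the interaction. This overlap was not counted over all genes tested, so it cannot be read as a trait of the class.

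**Figure D3:**
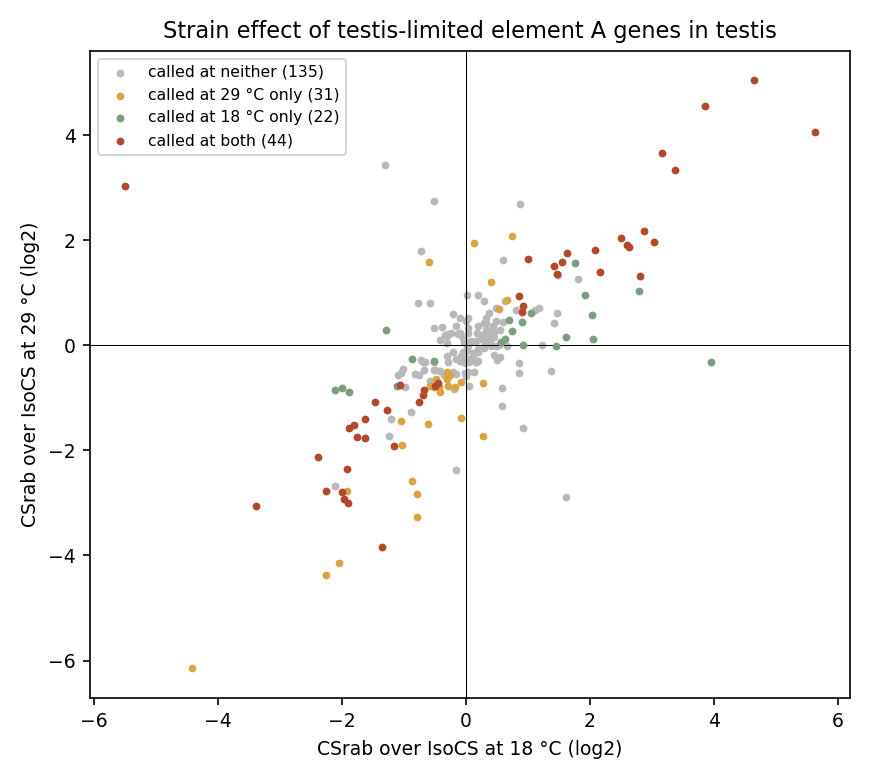
Log2 change of CSrab over IsoCS in testis at 18 °C (horizontal) and 29 °C (vertical) for each of the 232 testis-limited genes, coloured by whether it was called. The 44 genes called at both temperatures lie in the upper right and lower left apart from LOC109613297, at -5.50 and 3.04.

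Genes higher in CSrab at both temperatures included several that were close to silent in IsoCS testes. Of these, LOC101895757, LOC109613871 and LOC109613181 reached a group mean of 1 CPM only in CSrab testes. They thus entered the class through the strain in which they were high, and their split is partly a product of that choice. LOC101895757 had 14.4, 24.9 and 7.44 CPM in CSrab, against 0.375, 0.16 and 0.836 CPM in IsoCS at 29 °C. At 18 °C it had 12.9, 18.2 and 18.4 CPM in CSrab, against 0.789, 0.291 and 0.954 CPM in IsoCS. No CSrab library came near the IsoCS range, and the log2 changes were 5.05 ± 0.57 at 29 °C (SE; adjusted p = 0.000432, edgeR) and 4.65 ± 0.56 at 18 °C (adjusted p = 0.000583).

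LOC109613871 showed the same split, with 11.1, 13.7 and 9.27 CPM in CSrab, against 0.3, 0.4 and 0.774 CPM in IsoCS at 29 °C, and 10.5, 8.38 and 11.4 CPM in CSrab, against 0.819, 0.34 and 0.992 CPM in IsoCS at 18 °C. Its log2 changes were 4.55 ± 0.41 and 3.86 ± 0.40 (adjusted p = 0.000123 and 0.000238), and it had 0 counts in all 12 head libraries. LOC109613181, a low-level gene, had 3.21, 4 and 1.86 CPM in CSrab, against 0.075, 0.24 and 0.217 CPM in IsoCS at 29 °C. At 18 °C it had 1.73, 2.21 and 2.4 CPM in CSrab, against 0, 0.097 and 0.0381 CPM in IsoCS. The groups did not overlap at either temperature, with log2 changes of 4.06 ± 0.58 and 5.64 ± 0.70 (adjusted p = 0.00163 and 0.000666). LOC109612684 was detected well in both strains, with 20.7, 20.3 and 11.2 CPM in CSrab, against 1.3, 1.52 and 2.29 CPM in IsoCS at 29 °C. At 18 °C its values were 27.6, 22.9 and 28.7 CPM in CSrab, against 3.18, 1.75 and 2.98 CPM in IsoCS, again without overlap, with log2 changes of 3.34 ± 0.28 and 3.38 ± 0.28 (adjusted p = 7.9e-05 and 7.21e-05).

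Genes lower in CSrab at both temperatures were led by LOC109613460. It had 6.17, 6.92 and 3.72 CPM in CSrab, against 39.4, 37.7 and 62.5 CPM in IsoCS at 29 °C, and 2.75, 3.22 and 6.46 CPM in CSrab, against 48.9, 43.1 and 46.8 CPM in IsoCS at 18 °C. The IsoCS libraries all lay far above the CSrab ones, with log2 changes of -3.06 ± 0.33 and -3.38 ± 0.34 (adjusted p = 0.00032 and 0.000214). LOC101891045 had 6.11, 6.55 and 4.79 CPM in CSrab, against 23.2, 33.9 and 15.6 CPM in IsoCS at 29 °C. At 18 °C it had 1.47, 3.42 and 2.2 CPM in CSrab, against 15.1, 11.6 and 12 CPM in IsoCS. The 2 changes were -2.12 ± 0.38 and -2.39 ± 0.40 (adjusted p = 0.00576 and 0.00318), again with no overlap between strains.

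LOC105262560 and LOC101893818 were low-level genes with the same direction. Both reached a group mean of 1 CPM only in IsoCS testes, the strain through which they entered the class. LOC105262560 had 0.31, 1.04 and 0.473 CPM in CSrab, against 3.62, 5.64 and 2.69 CPM in IsoCS at 29 °C (log2 change -2.80 ± 0.54, adjusted p = 0.0078). At 18 °C it had 0.639, 0.335 and 0.751 CPM in CSrab, against 3.43, 2.13 and 1.79 CPM in IsoCS (-2.00 ± 0.54, adjusted p = 0.0339). LOC101893818 had 1.03, 0.706 and 0.189 CPM in CSrab, against 4.7, 5.6 and 1.83 CPM in IsoCS at 29 °C, and 0.447, 0.603 and 0.952 CPM in CSrab, against 5.1, 1.94 and 3.17 CPM in IsoCS at 18 °C. Its changes of -2.78 ± 0.65 and -2.25 ± 0.65 were called (adjusted p = 0.021 and 0.0478), but the 18 °C call held in 8 of 20 alternative analyses and the adjusted p reached 0.17.

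**Figure D4:**
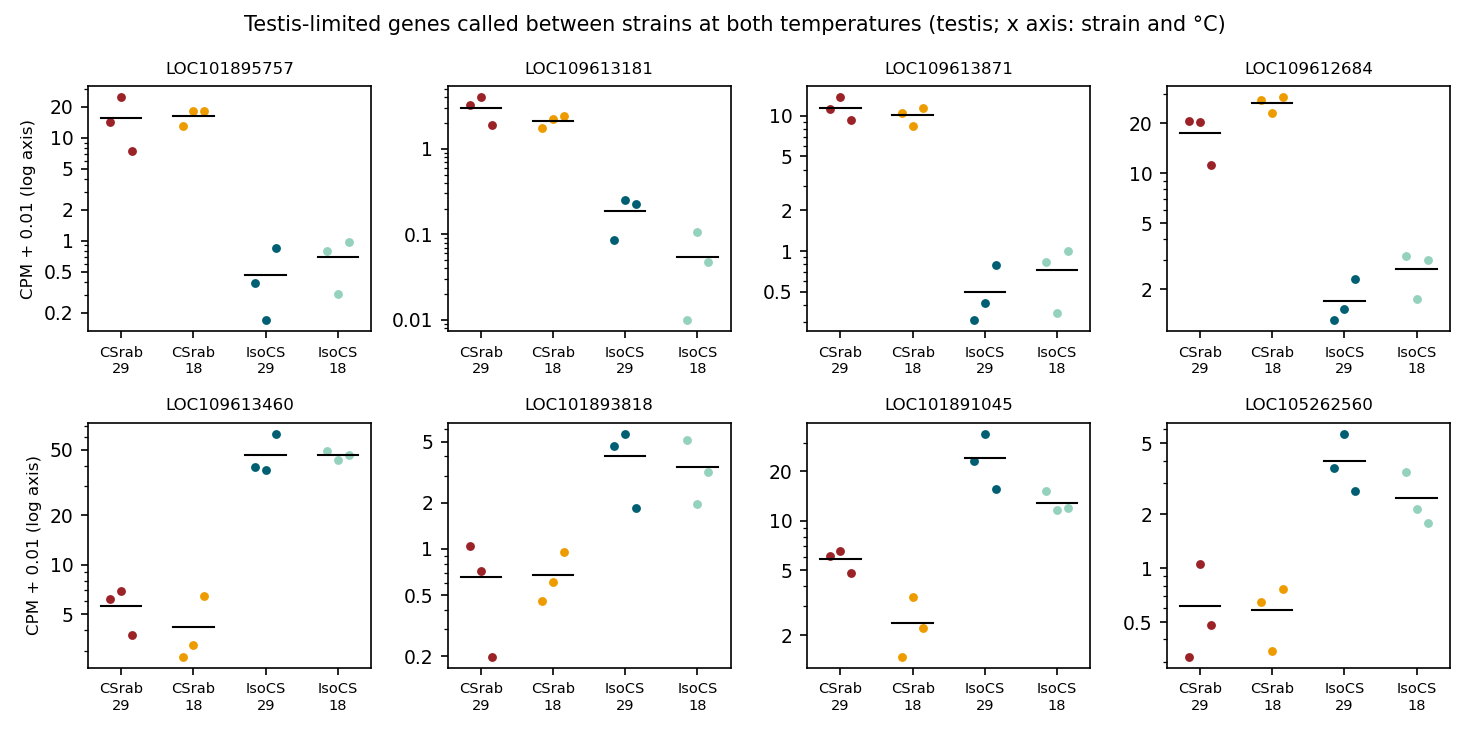
CPM plus 0.01 (log axis) of 8 testis-limited genes called between strains at both temperatures, the 4 in each direction that lead by the smaller of their 2 changes, in each testis library (points) with the group mean (bar), by strain and temperature in °C. In the upper row every CSrab point lies above every IsoCS point, and in the lower row below. LOC101895757, LOC109613871 and LOC109613181 reached a group mean of 1 CPM only in CSrab, and LOC101893818 and LOC105262560 only in IsoCS.

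Among genes lower in CSrab at 29 °C, the largest changes that were called with no overlap between strains were those of genes with uneven IsoCS replicates. LOC101889618 had 0.0345, 0.188 and 0.0315 CPM in CSrab, against 14.3, 1.4 and 0.96 CPM in IsoCS (log2 change -6.15 ± 1.21, adjusted p = 0.00901). One IsoCS library thus held most of its counts, and the strains still did not overlap. LOC101897670 had 0.448, 0.33 and 0.252 CPM in CSrab, against 5.42, 13 and 1.64 CPM in IsoCS (-4.38 ± 0.83, adjusted p = 0.00761), and LOC101897843 had 0.31, 0.801 and 0.851 CPM in CSrab, against 10.6, 20 and 2.6 CPM in IsoCS (-4.14 ± 0.78, adjusted p = 0.00708). At 18 °C these 3 genes were not called (adjusted p = 0.0621, 0.0994 and 0.11), and whether their strain effect differed between temperatures did not pass the interaction test. LOC101897670 and LOC101897843 reached a group mean of 1 CPM only in IsoCS testes, through which they entered the class. LOC101889618 reached it only in IsoCS testes at 29 °C, so it too entered through the group in which it was high.

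The 6 testis-limited genes with the largest share of the testis libraries, which together took 31.9% of the counts of the class, included 2 called for strain. The leader, LOC101896325, had 2307, 2584 and 1894 CPM in CSrab, against 1214, 1332 and 1465 CPM in IsoCS at 29 °C, and 1803, 1800 and 1778 CPM in CSrab, against 984, 867 and 1090 CPM in IsoCS at 18 °C. It was higher in all CSrab libraries, by 0.75 ± 0.12 and 0.93 ± 0.12 on the log2 scale (adjusted p = 0.00336 and 0.000919). LOC101889114 averaged 1298 ± 329.9 CPM in CSrab, against 1823 ± 209 CPM in IsoCS at 29 °C (SD, n = 3), and its change of -0.51 ± 0.13 (adjusted p = 0.032, edgeR) was called in 9 of 20 alternatives. LOC101890247, LOC109612233, LOC101889013 and LOC101891631, with means of 1504, 931, 912 and 773 CPM over the 12 testis libraries, were not called for strain at either temperature. CPM is not corrected for transcript length, so these figures rank genes by their share of a library.

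Testis-limited genes on the same scaffold sometimes shared a direction and sometimes did not. The 44 genes called at both temperatures lay on 30 scaffolds, and 24 of them on 10 scaffolds with more than one. On 6 of those 10 scaffolds all such genes differed in one direction, and on 4 they differed in both directions. On one scaffold of 18 element A genes, 3 of the 4 testis-limited genes, LOC101887719, LOC101888923 and LOC101889105, were higher in CSrab, by 1.81, 2.17 and 1.65 at 29 °C and by 2.09, 2.87 and 1.00 at 18 °C on the log2 scale. On another of 22 element A genes, LOC101891045, LOC101894256 and LOC101894582 of 4 were lower, by -2.12, -0.76 and -1.23 at 29 °C and by -2.39, -1.06 and -1.27 at 18 °C. On the scaffold with 5 testis-limited genes out of 8, none of the 5 was called for strain at either temperature. These scaffolds were picked after their values were seen, and scaffold order along the chromosome was not used.

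With all libraries kept, fewer testis-limited genes were called for temperature than for strain. In IsoCS testes 45 of the 232 (19.4%) were called, 41 higher and 4 lower at 29 °C, against 10.4% of all genes (6.62% higher, 3.81% lower). In CSrab testes 25 (10.8%) were called, 19 higher and 6 lower at 29 °C, against 6.73% of all genes (3.23% higher, 3.5% lower). Testis-limited genes on elements B to F stood at 21.9% in IsoCS and 10.2% in CSrab. Among the 185 genes at 1 CPM or more in each testis group, 38 (20.5%) were called in IsoCS and 18 (9.73%) in CSrab, against 10.2% and 6.35% of all genes tested that met this rule. Without both testis libraries numbered 3 at 29 °C, a run chosen after seeing the data, the order changed. Then 92 were called for temperature in IsoCS and 86 for strain at 29 °C (29.3 and 24.4% of all genes). The difference between the strains' temperature effects is tested by the interaction below.

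The balance of higher and lower calls depended on whether scaling factors were used, while the sign of each called gene was kept in every alternative run. On column totals, the median change over all genes moved by -0.29 (log2) in IsoCS and by -0.23 in CSrab relative to TMM scaling, whose median was near 0, so the counts above are changes relative to the median gene. On column totals 14 testis-limited genes were called in IsoCS, 10 higher and 4 lower at 29 °C (4.66% of all genes), and 19 in CSrab, 9 higher and 10 lower (4.78% of all genes). With DESeq2 size factors in edgeR, 41 were higher and 4 lower in IsoCS, and 19 and 6 in CSrab (10.5 and 6.73% of all genes called). With upper-quartile scaling it was 41 and 4 in IsoCS, and 17 and 7 in CSrab (10.4 and 6.69%). The count in IsoCS also rested on single libraries. It was 88 without replicate 3 at 29 °C, 60 higher and 28 lower (25.6% of all genes were then called, against 10.4% with all libraries). It was 18 without replicate 1 and 19 without replicate 2 at 18 °C (2.75 and 3.26% of all genes). In CSrab the count was 12, 15 and 18 without replicates 1, 2 and 3 at 29 °C (2.57, 3.53 and 5.82% of all genes), and 10, 9 and 15 without replicates 1, 2 and 3 at 18 °C (3, 2.04 and 2.92%). Same-numbered testis libraries of a strain deviated together to a small degree, though the labels state no pairing. With that number as a block 31 of the 45 IsoCS calls and 16 of the 25 CSrab calls passed (8.19 and 5.61% of all genes then passed).

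LOC101899681 rose at 29 °C in both strains. It had 37.9, 43.8 and 15.3 CPM at 29 °C and 6.77, 5.97 and 8.57 CPM at 18 °C in CSrab, and 226, 350.4 and 131 CPM at 29 °C and 35.7, 22.7 and 25.4 CPM at 18 °C in IsoCS. The temperatures did not overlap in either strain, with log2 changes of 2.35 ± 0.45 (CSrab, adjusted p = 0.0132) and 3.44 ± 0.46 (IsoCS, adjusted p = 0.00317). It was also lower in CSrab than in IsoCS, by -3.00 ± 0.45 at 29 °C (adjusted p = 0.00215) and -1.90 ± 0.44 at 18 °C (adjusted p = 0.0181).

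LOC101897058 reached a group mean of 1 CPM only at 29 °C, the temperature through which it entered the class. It had 2.73, 2.59 and 1.17 CPM at 29 °C and 0.383, 0.134 and 0.401 CPM at 18 °C in CSrab, and 4.5, 2.28 and 3.25 CPM at 29 °C and 0.394, 0.631 and 0.458 CPM at 18 °C in IsoCS. On the log2 scale it rose by 2.96 ± 0.45 in CSrab (adjusted p = 0.00586) and by 3.05 ± 0.43 in IsoCS (0.00396), with no overlap in either strain. In all, 13 testis-limited genes were called for temperature in both strains, 10 of them higher in both, 1 lower in both and 2 in opposite directions. The matching overlap over all genes was not counted.

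The gene lower at 29 °C in both strains was LOC109611759. It had 0.241, 0.424 and 0.126 CPM at 29 °C and 3.45, 3.82 and 4.76 CPM at 18 °C in CSrab, and 3, 3 and 4.98 CPM at 29 °C and 11.1, 9.85 and 11.4 CPM at 18 °C in IsoCS. The log2 change was -3.76 ± 0.34 for CSrab, with an adjusted p of 0.000514, and -1.28 ± 0.29 for IsoCS, with an adjusted p of 0.0217, and CSrab lay below IsoCS at both temperatures. LOC101892854 fell in IsoCS, where it had 6.47, 8.6 and 6.41 CPM at 29 °C and 30.7, 38 and 37.4 CPM at 18 °C (-1.98 ± 0.29, adjusted p = 0.00451). LOC101895840 fell in CSrab, where it had 0.552, 0.706 and 0.599 CPM at 29 °C and 4.98, 4.09 and 2.61 CPM at 18 °C (-2.37 ± 0.53, adjusted p = 0.0265).

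Other large increases at 29 °C were less even. LOC101898329 had 19.3, 19.2 and 57.3 CPM at 29 °C and 4.22, 5.09 and 7.41 CPM at 18 °C in CSrab (2.86 ± 0.72, adjusted p = 0.0412). LOC101899744 had 165, 32.4 and 9.72 CPM at 29 °C and 7.19, 6.45 and 7.44 CPM at 18 °C in IsoCS, a change of 3.63 ± 1.00 (adjusted p = 0.044) carried mainly by one library, with an adjusted p of 0.0976 with the replicate block. In IsoCS, LOC101897843 had 10.6, 20 and 2.6 CPM at 29 °C and 3.09, 1.41 and 2.48 CPM at 18 °C, groups that overlap, with a change of 2.65 ± 0.71 (adjusted p = 0.0412, and 0.114 with the block). Of the leading genes, LOC101896325 rose at 29 °C by 0.75 ± 0.12 in IsoCS (adjusted p = 0.00677, and 0.0989 on column totals) and by 0.57 ± 0.12 in CSrab (0.0227, and 0.0819 with the block), and LOC101891631 rose by 0.82 ± 0.19 in IsoCS (adjusted p = 0.0259).

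For 3 testis-limited genes (1.29%) the temperature effect differed between the strains by the interaction test, against 0.249% of all genes. The difference was positive for 1 and negative for 2 of them, as it was for 0.098% and 0.151% of all genes. Without IsoCS replicate 3 at 29 °C, 7 passed (0.911% of all genes), while 0 passed without any one CSrab library at 18 °C, and 1 without any one of the other libraries except IsoCS replicate 2 at 29 °C. With the replicate block within strain 0 passed, although 42 were under an unadjusted p of 0.05 without it. LOC109613297 had 10.1, 103 and 73.2 CPM at 29 °C and 8.63, 7.11 and 8.27 CPM at 18 °C in CSrab, and 7.25, 8.36 and 7.12 CPM at 29 °C and 275, 429 and 428 CPM at 18 °C in IsoCS. It was thus high in IsoCS at 18 °C and in 2 of the 3 CSrab libraries at 29 °C, and at 7.11 to 10.1 CPM elsewhere. Its temperature effect was 3.22 ± 0.65 in CSrab and -5.32 ± 0.71 in IsoCS, and the difference of 8.54 ± 0.96 had an adjusted p of 0.00873 (0.0646 with the block).

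LOC101893483 was high in one group. It had 1.1, 0.848 and 0.41 CPM at 29 °C and 6.64, 9.25 and 6.56 CPM at 18 °C in CSrab, and 0.725, 0.36 and 1.92 CPM at 29 °C and 0.394, 0.485 and 0.61 CPM at 18 °C in IsoCS. All CSrab libraries at 18 °C lay above all others, and the interaction was -4.27 ± 0.68 (adjusted p = 0.0385, and 0.104 with the block). Its group means were 0.787 CPM in CSrab at 29 °C, and 1 and 0.497 CPM in IsoCS at 29 and 18 °C. It thus entered the class through CSrab at 18 °C, the group in which it was high. LOC109612121 was low in one group, with 0.966, 0.565 and 0.631 CPM at 29 °C and 4.34, 4.76 and 3.21 CPM at 18 °C in CSrab, and 5.72, 5.04 and 11.1 CPM at 29 °C and 6.31, 7.96 and 7.82 CPM at 18 °C in IsoCS. Its interaction was -2.47 ± 0.41 (adjusted p = 0.0463, and 0.137 with the block). These calls held in 7 and 6 of 21 alternatives.

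In the authors' deposited table for testis, 12 of the 230 testis-limited genes with a value (5.22%) had an adjusted interaction p under 0.05, against 1.84% of all genes with a value. DESeq2 as run here also called 12, and 247 of 13448 genes overall in either source. The submitters' notes name DESeq2 too, so this is no independent check. LOC109613297 (2.09e-20), LOC101893483 (2.17e-06), LOC109612121 (1.08e-05) and LOC109611759 (8.48e-05) had the smallest values in the authors' deposited table. LOC109614211, another of the 12 and picked after its values were seen, was called for temperature in opposite directions in the strains by edgeR. It had 24.3, 27.6 and 18.4 CPM at 29 °C and 16, 16.6 and 14.8 CPM at 18 °C in CSrab, and 12.4, 16.5 and 29.1 CPM at 29 °C and 36.4, 40.7 and 42.9 CPM at 18 °C in IsoCS. Its edgeR interaction of 1.57 ± 0.29 had an adjusted p of 0.0755.

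In head, 76 of the 232 testis-limited genes had enough counts to test. A gene could pass that filter through a single group in which it was high, so the shares below depend in part on the filter. For strain, 5 (6.58%) were called at 29 °C, against 4.41% of all 12347 genes tested in head, and 3 (3.95%) at 18 °C, against 3.27%. For temperature, 1 (1.32%) was called in CSrab, against 0.283% of all genes, and 0 in IsoCS, where 0.697% of all genes were (16 had an unadjusted p under 0.05). DESeq2 called 4 of 109 in IsoCS, against 5.65% of all genes. The interaction test called 0, against 0.0243% of all genes (5 with an unadjusted p under 0.05). DESeq2 called 1 for the interaction, against 0.382% of all genes. The 3 called at 18 °C in head, LOC101893483, LOC105262026 and LOC101893314, were also called in testis with the same sign. LOC101893483 could pass the filter in head only through CSrab at 18 °C, where it was high. The share of all genes called in both tissues was not counted.

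In head, as in testis, LOC101893483 was highest in CSrab at 18 °C. It had 0, 0 and 0.028 CPM at 29 °C and 2.25, 1.13 and 2.34 CPM at 18 °C in CSrab, and 0 counts in the 6 IsoCS head libraries. At 18 °C it was at least 11.1-fold higher in CSrab, with the IsoCS level set at the floor of 3 counts per library (adjusted p = 0.0124 in edgeR). LOC105262026 had 0.439, 1.02 and 0.547 CPM in CSrab, against 0 counts in all 3 IsoCS heads at 18 °C, at least 3.9-fold higher in CSrab (adjusted p = 0.0149). In testis at 18 °C it had 6.13, 7.17 and 2.96 CPM in CSrab, against 1.3, 1.41 and 1.3 CPM in IsoCS. LOC101893314 had 1.65, 1.48 and 1.34 CPM in CSrab, against 0.596, 0.429 and 0.574 CPM in IsoCS heads at 18 °C (1.44 ± 0.33, adjusted p = 0.045).

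Of the 5 testis-limited genes called in head at 29 °C, LOC101894963 was also called in testis, with the opposite sign. It had 0.853, 0.63 and 0.14 CPM in CSrab, against 0.0412, 0 and 0 CPM in IsoCS heads (5.03 ± 1.23, adjusted p = 0.049), while its change in testis was -1.41 ± 0.35 (adjusted p = 0.0261). LOC109612167 had 1.34, 1.67 and 1.51 CPM in CSrab heads and 0 counts in the 3 IsoCS heads at 29 °C, at least 12.7-fold higher in CSrab by the same floor (adjusted p = 0.017). LOC101893367 had 1.5, 4.04 and 0.84 CPM in CSrab heads and 0 counts in the 3 IsoCS heads, at least 17.9-fold higher in CSrab (adjusted p = 0.0383). In testis at 29 °C its replicates spread widely, with 1.52, 1.41 and 0.505 CPM in CSrab, against 18.2, 0.28 and 2.51 CPM in IsoCS. LOC109612167 and LOC101893367 had means of 0.161 CPM or less in the other head groups. Both could thus pass the filter in head only through CSrab at 29 °C, where they were high. LOC101899824 was higher in CSrab heads (2.19 ± 0.39, adjusted p = 0.0135) and LOC101896844 lower (-4.66 ± 0.89, adjusted p = 0.017). LOC101899681 reached 7.38 CPM in head in CSrab replicate 2 at 29 °C, and 0 to 1.34 CPM in the other head libraries.

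Among head-limited genes, the 6 with the largest share of the head libraries took 61.5% of the counts of the class, and some of them varied widely among replicates. LOC101891419 had 1289, 1800 and 4539 CPM in CSrab at 29 °C, 709, 1052 and 0.298 CPM in CSrab at 18 °C, 0.947, 592 and 0.0856 CPM in IsoCS at 29 °C, and 0.758, 1170 and 1.21 CPM in IsoCS at 18 °C. Its libraries were either at 592 CPM and above or at 1.21 CPM and below, and the strains overlapped. The strain change at 29 °C, 3.92 ± 3.16, had an adjusted p of 0.543.

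LOC109612647 had 1019, 1253 and 3070 CPM in CSrab at 29 °C, 322, 519.6 and 20.5 CPM in CSrab at 18 °C, 81.7, 93.8 and 35.8 CPM in IsoCS at 29 °C, and 4.17, 2211 and 12.3 CPM in IsoCS at 18 °C. At 29 °C the strains did not overlap, but the log2 change of 4.84 ± 2.03 had an adjusted p of 0.212. LOC101890851 was the steadiest of the 6, at 201 to 523 CPM over the 12 head libraries (median 276 CPM). LOC101896379 ranged from 141 to 1256 CPM and LOC101898824 from 102 to 765 CPM, and neither was called for strain.

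**Figure D5:**
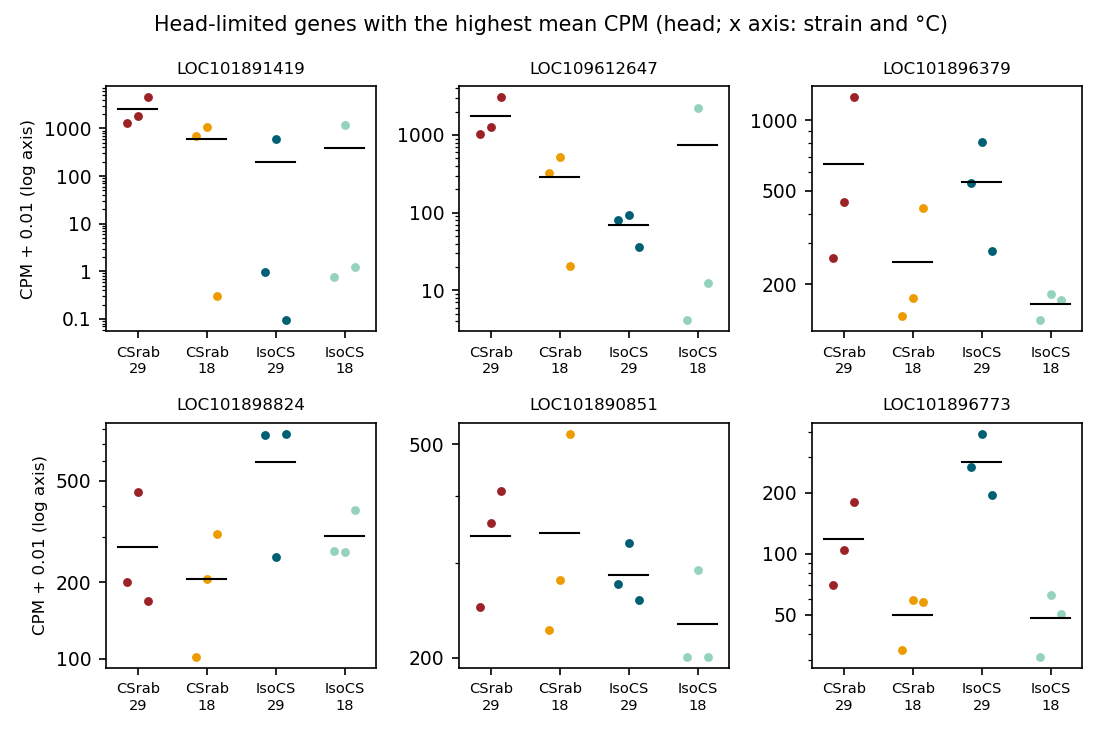
CPM plus 0.01 (log axis) of the 6 head-limited genes with the highest mean in head, in each head library (points) with the group mean (bar), by strain and temperature in °C. LOC101891419 is at 592 CPM or more in 7 of the 12 libraries and under 2 CPM in the other 5.

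A range of 10-fold or more between replicates of a group, after adding 0.5 CPM, was found for 21 of the 132 head-limited genes (15.9%), against 4.34% of all genes at 1 CPM or more in head. For testis-limited genes it was 11 of 232 (4.74%), against 4.36% of all genes at 1 CPM or more in testis. Which library was lowest or highest was uneven within some groups. In CSrab heads at 18 °C, replicate 3 was the lowest for all 12 head-limited genes with such a range there. In IsoCS heads at 18 °C, replicate 2 was the highest for 9 of 13 and the lowest for 4.

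The high libraries were not the same for all of these genes, and several of the genes shared a scaffold. LOC101891244 lies on the scaffold of LOC101891419 and was high in the same libraries, with 37.1, 53.1 and 166 CPM in CSrab at 29 °C, 17.5, 20.9 and 0 CPM in CSrab at 18 °C, 0.124, 15 and 0 CPM in IsoCS at 29 °C, and 0.0541, 48.7 and 0.127 CPM in IsoCS at 18 °C. LOC101900839, on another scaffold, was high in the same libraries, with 146, 177 and 362 CPM in CSrab at 29 °C, 71.1, 97.2 and 0.398 CPM in CSrab at 18 °C, 0.0412, 9.43 and 0.0856 CPM in IsoCS at 29 °C, and 0, 274 and 0 CPM in IsoCS at 18 °C. LOC101895721 was high in other libraries, with 80.1, 1.22 and 0.14 CPM in CSrab at 29 °C, 70.4, 2.89 and 0.0497 CPM in CSrab at 18 °C, 0.0412, 0.0693 and 2.23 CPM in IsoCS at 29 °C, and 84.3, 0.107 and 1.15 CPM in IsoCS at 18 °C. It shares a scaffold with 3 other head-limited genes of wide range, LOC101895368, LOC101897627 and LOC101898486. What sets these libraries apart was not tested, and these genes were chosen after their values were seen.

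The shares of head-limited genes called in head lay near those of all genes. For strain, 7 of 132 (5.3%) were called at 29 °C, against 4.41% of all genes. Of the 7, 4 had more and 3 had less in CSrab, as did 2.7% and 1.71% of all genes. At 18 °C the count was 6 (4.55%), 4 with more and 2 with less in CSrab, against 3.27% of all genes, 1.9% with more and 1.37% with less. On column totals, which moved the median change of all genes by -0.19 at 29 °C, 9 were called at 29 °C, 4 with more and 5 with less in CSrab (5.74% of all genes), and 4 at 18 °C, 2 each way (2.74%). Among the 100 head-limited genes at 1 CPM or more in each head group, 4 were called at 29 °C and 3 at 18 °C, against 3.52% and 2.84% of all genes tested that met this rule. In 5 genes the call held at both temperatures with the same sign, and the matching overlap over all genes was not counted. The 18 °C count was 3 without CSrab head replicate 1 or 2 or IsoCS head replicate 2 at 18 °C.

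LOC101899534 and LOC101887594 reached a group mean of 1 CPM in head only in CSrab, the strain through which they entered the class. LOC101899534 had the largest called changes. It had 6.46, 6.04 and 9.55 CPM in CSrab, against 0.0824, 0.139 and 0.128 CPM in IsoCS at 29 °C, and 6.48, 7.22 and 9.59 CPM in CSrab, against 0.162, 0.107 and 0.127 CPM in IsoCS at 18 °C. IsoCS heads were nearly without it, at 2 to 4 counts per library, and the log2 changes were 6.09 ± 0.29 (adjusted p = 1.71e-05) and 5.77 ± 0.30 (adjusted p = 3.37e-05). LOC101887594 had 2.48, 3 and 4.79 CPM in CSrab, against 0.124, 0.173 and 0.171 CPM in IsoCS at 29 °C, and 7.36, 5.49 and 5.32 CPM in CSrab, against 0.108, 0.375 and 0.382 CPM in IsoCS at 18 °C. Its log2 changes were 4.59 ± 0.45 and 4.34 ± 0.44 (adjusted p = 0.000773 and 0.0012).

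The other 3 differed by less, and LOC101891399 reached a group mean of 1 CPM in head only in IsoCS. LOC101895926 had 46.6, 52.6 and 63.9 CPM in CSrab, against 26.1, 26.1 and 32.4 CPM in IsoCS at 29 °C (1.13 ± 0.16, adjusted p = 0.00514), and its change at 18 °C was 0.70 ± 0.16 (adjusted p = 0.0474, called in 8 of 19 alternatives). LOC101891399 was lower, with 0.365, 0.148 and 0.364 CPM in CSrab, against 1.85, 2.11 and 1.76 CPM in IsoCS at 29 °C (-2.50 ± 0.33, adjusted p = 0.00346) and a change of -3.04 ± 0.35 at 18 °C (adjusted p = 0.00175). LOC101888242 was also lower, with 1.3, 1.41 and 1.62 CPM in CSrab, against 5.23, 4.68 and 4.8 CPM in IsoCS at 29 °C (-1.57 ± 0.27, adjusted p = 0.0116) and a change of -1.38 ± 0.27 at 18 °C (adjusted p = 0.0247). In each of these genes the strains did not overlap at 29 °C. Called at one temperature were LOC101900217 (-1.45 ± 0.28, adjusted p = 0.0195) and LOC101889416 at 29 °C and, at 18 °C, LOC101887933 (0.56 ± 0.11, adjusted p = 0.0273), which is named here because it completes the count.

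Temperature effects were called for few head-limited genes. In CSrab 1 (0.758%) was called, higher at 29 °C, against 0.283% of all genes (0.138% higher and 0.146% lower). In IsoCS 2 (1.52%) were called, both higher at 29 °C, against 0.697% (0.381% higher and 0.316% lower). LOC101889416 had 11.1, 12.3 and 19.8 CPM at 29 °C and 1.43, 1.3 and 1.69 CPM at 18 °C in CSrab, and 3.83, 3.95 and 6.25 CPM at 29 °C and 4.11, 4.72 and 2.36 CPM at 18 °C in IsoCS. It rose by 3.37 ± 0.35 in CSrab (adjusted p = 0.011, and 0.0528 with the replicate block), a call lost without CSrab head replicate 1 or 2 at 18 °C, and was higher in CSrab than in IsoCS at 29 °C, by 1.80 ± 0.32 (adjusted p = 0.0135). No head-limited gene passed edgeR's interaction test (0.0243% of all genes did, 6 head-limited genes had an unadjusted p under 0.05, and 1 passed with DESeq2), while in the authors' deposited table LOC101889416 had an adjusted interaction p of 7.74e-07, the only one of 130 head-limited genes under 0.05, against 0.382% of all genes.

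In IsoCS heads LOC101896773, the sixth gene by share, had 269.8, 392 and 195 CPM at 29 °C and 31, 62.3 and 50.3 CPM at 18 °C, a change of 2.41 ± 0.42 (adjusted p = 0.039). LOC109612165 had 5.93, 6.27 and 3.77 CPM at 29 °C and 1.25, 1.39 and 0.892 CPM at 18 °C, a change of 2.02 ± 0.32 (adjusted p = 0.0296). The temperatures did not overlap for either gene. Both calls were lost on leaving out any IsoCS head library at 18 °C, replicate 1 or 2 at 29 °C, or CSrab replicate 2 at either temperature, and the adjusted p then reached 0.156 and 0.129.

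In testis, 81 of the 132 head-limited genes had enough counts to test, and here too a gene could pass the filter through a single group in which it was high. For strain, 11 were called at 29 °C and 12 at 18 °C, for temperature 3 in CSrab and 6 in IsoCS, and 0 for the interaction (6 with an unadjusted p under 0.05, and 0 by DESeq2), where the backgrounds were 10.9, 12.7, 6.73, 10.4 and 0.249% of all genes. Of the genes called for strain in testis, 7 of 11 at 29 °C and 9 of 12 at 18 °C had the same sign in head. Only 2 at each temperature were also called in head. These were LOC101899534 and LOC101887594, whose strain difference was thus called in both tissues at both temperatures. LOC101899534 had 0.931, 1.08 and 1.8 CPM in CSrab, against 0.05, 0 and 0.186 CPM in IsoCS testes at 29 °C (4.03 ± 0.855, adjusted p = 0.013), and LOC101887594 had 1.41, 1.22 and 1.7 CPM in CSrab, against 0.075, 0.08 and 0 CPM in IsoCS (4.73 ± 0.74, adjusted p = 0.00273). Both thus passed 1 CPM in CSrab testes, although their mean over the 12 testis libraries, 0.741 and 0.896 CPM, placed them among the head-limited genes.

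Some head-limited genes owed their testis mean to one library. LOC101890539, at 18.6 to 113 CPM over the head libraries, had its highest testis value, 7.95 CPM, in IsoCS replicate 1 at 29 °C. LOC101900177 reached 8.82 CPM in the same library and 0 to 0.52 CPM in the other testis libraries. LOC109612948 was high in one testis group instead: in IsoCS testes it had 0, 0 and 0.341 CPM at 29 °C and 2.94, 2.13 and 2.25 CPM at 18 °C (-4.17 ± 0.92, adjusted p = 0.0212). In head, LOC101900177 had 11.2, 15.5 and 12.4 CPM in CSrab, against 0.494, 1.04 and 0.214 CPM in IsoCS at 29 °C, groups that do not overlap, with a change of 4.66 ± 1.35 and an adjusted p of 0.0842.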

How the data were processed

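Heads and testes of CSrab and IsoCS house flies raised at 29 or 18 °C were sequenced by stranded polyA RNA-seq, 3 libraries per group, 24 in all. The authors deposited 1 table of raw counts per tissue (16540 genes), each with the authors' adjusted p-value for the interaction per gene, per the file headers. The submitters' processing notes name HISAT2, SAMtools, HTSeq and DESeq2; versions, build and options are not given in the sources used here, so the treatment of reads shared by similar genes is unknown here. Each column of counts was matched to its library by name, and 0 columns were unmatched.

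CPM in the text is the count over the column total. For each tissue the 12 libraries were fitted with edgeR 4.0.16 (R 4.3.3, limma 3.58.1): filterByExpr (minimum count 10, minimum total count 15), TMM scaling, 1 coefficient per group, quasi-likelihood F test, Benjamini-Hochberg adjustment over all genes tested, threshold 0.05. The standard error is the log2 change over the square root of F. All 364 genes passed the filter in their own tissue. The fit was tested on simulated data. DESeq2 1.42.0 and the alternatives under the closing section were also run. Tests that share a group, such as a strain and a temperature effect, are not independent.

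The genes, lists and tests were chosen with earlier results of these data known. Genes are named by rule: per class, the 6 highest in CPM, up to 3 largest called changes each way per comparison (at least 2 CPM, replicates not overlapping), up to 4 each way called for strain at both temperatures, the 3 highest in a group of the other tissue, and the threshold neighbours. Any other gene named was chosen after its values were seen. Lists by product name could not be applied, since the gene table in use names no products.

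Same-numbered libraries deviated together within a strain: correlations of deviations from group means were 0.156 to 0.313 in CSrab testes, 0.2 to 0.522 in IsoCS testes and 0.261 to 0.552 in CSrab heads, all over 0.1. In IsoCS heads they were -0.14 to 0.365, and between strains they were not all over 0.1, so no pairing was assumed there. Some differently numbered libraries of a strain also passed 0.1, such as 0.134 in CSrab testes, 0.147 in IsoCS testes and 0.113 in CSrab heads. The labels state no pairing, so it remains an assumption of the block. The block leaves 4 residual degrees of freedom, against 8.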

Additional observations from a re-analysis of the deposited data

Results flagged for a closer look

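The temperature effect differed between CSrab and IsoCS testes for 3 testis-limited genes by edgeR's interaction test. The difference, the effect in CSrab minus that in IsoCS on the log2 scale, was 8.54 for LOC109613297, -4.27 for LOC101893483 and -2.47 for LOC109612121. The adjusted p-values were 0.00873, 0.0385 and 0.0463, and with the replicate number within strain as a block they were 0.0646, 0.104 and 0.137. LOC101893483 entered the class through a single testis group, the one in which it was high.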

How the results depend on the processing

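Of the 232 testis-limited genes, 76 had enough counts to test in head, and a missed threshold there does not show an equal level. No named change reversed its sign: of 1023 alternative values for 51 changes, 890 kept direction and side of the threshold and 133 lost the call. Leaving out 1 library at a time gave 52 to 97 testis-limited calls for strain at 29 °C, 45 to 81 at 18 °C, 9 to 32 for temperature in CSrab, 18 to 88 in IsoCS and 0 to 7 for the interaction. In the runs at the ends of the first 4 ranges, 6.88 and 22.7%, 6.43 and 16.5%, 2.04 and 9.17%, and 2.75 and 25.6% of all genes were called. For head-limited genes in head, leaving out 1 library gave 5 to 9, 3 to 7, 0 to 1, 0 to 4 and 0 to 1 in the same order, and it moved the number of testis-limited genes to 225 to 235 and of head-limited genes to 129 to 137. DESeq2 called 76 testis-limited genes for temperature in IsoCS and 12 for the interaction (16.7 and 1.84% of all genes). In head it called 15 head-limited genes for strain at 29 °C, 4 for temperature in CSrab, 11 in IsoCS and 1 for the interaction. It called 10.3, 5.69, 5.65 and 0.382% of all genes there, in the same order. Without a filter on low counts the testis interaction count was 1 (0.112% of all genes). Chosen after seeing the data, column totals gave 14 for temperature in IsoCS testes and 1 for the interaction (4.66 and 0.105% of all genes). Leaving out both testis libraries numbered 3 at 29 °C, also chosen after seeing the data, gave 92 and 6 (29.3 and 0.798%). With the replicate number as a block over all groups the testis interaction count was 1 and the IsoCS head temperature count 1 (0.098 and 0.324% of all genes). With the replicate block within strain the counts were 0 for the testis interaction, 0 for temperature in CSrab heads and 6 in IsoCS heads (0.0226, 0 and 2.47%). In IsoCS heads same-numbered libraries did not all deviate together. The block moved no other count by over 1.5 times. Among genes at 1 CPM or more in each group of their tissue, also chosen after seeing the data, 1 testis-limited gene was called for the interaction, and 4 head-limited genes for strain at 29 °C and 3 at 18 °C. Of all genes that met this rule, 0.194, 3.52 and 2.84% were called. A wider gap (2 and 0.5 CPM) kept 56 head-limited genes, and asking for the threshold in each group kept 67. The cause of these changes was not tested.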
